A study of Rattus norvegicus with 6 samples.

Results

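Vascular endothelial growth factors (VEGFs) and angiopoietins are the secreted ligands that build and maintain blood and lymph vessels, and their receptors sit mainly on endothelial cells. The 10 genes described here were chosen by symbol: the ligands Vegfa, Vegfb, Vegfc and Angpt2, the co-receptor Nrp1, and the receptors Kdr, Flt1, Flt4, Tek and Tie1. They had 15 probe sets on the array, and a gene with several was represented by the brightest on average over all arrays. After the dimmest 40% of probe sets had been left out, 9 of the 10 were tested, among 10372 genes of 14217 with a probe set. Flt4 was too dim.

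Livers of 3-week-old Sprague-Dawley rats (the age of weaning) were profiled on 6 Affymetrix arrays. A set of 3 came from offspring of dams on a high fat diet and 3 from offspring of dams on standard chow, the control diet. The comparison asks how maternal diet relates to liver transcripts of the offspring. The labels give no diet composition, feeding period, litter or sex, nor whether a sample is 1 animal or a pool, so the spread between samples may be partly technical. Levels are log2 signals, where 1 unit is a 2-fold difference, and every difference is high fat minus control.

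In liver, hepatocytes are a major source of VEGF-A, which binds KDR (VEGF receptor 2) and FLT1 (VEGF receptor 1) on the sinusoidal endothelium, the fenestrated lining that separates blood from hepatocytes. KDR carries most of the mitogenic signal, and FLT1 binds VEGF-A tightly with weak kinase activity. TEK, also called TIE2, is the receptor of angiopoietins. Angiopoietin 1 activates it, angiopoietin 2 acts against or for it depending on context, and TIE1 is an orphan relative that pairs with TEK.

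Hepatocyte markers were bright on all arrays, and Alb, albumin, averaged 14.62 in high fat livers and 14.57 in control livers. High fat replicate 1 carried exocrine pancreas transcripts, with the trypsinogen Prss1 at 13.08 against 4.10 to 5.30 on the other 5 arrays. In high fat replicate 3 the X-inactivation RNA Xist was at 4.45, against 12.46 to 13.31 on the others, and the Y-linked Eif2s3y at 11.14, against 0 to 3.99. The sex-linked Uty did not follow Eif2s3y: it was at 11.00, 11.20 and 10.26 in high fat livers and at 11.19, 10.83 and 10.64 in control livers. Xist and Eif2s3y thus set 1 high fat sample apart from the other 5 samples. Without it Kdr differed by -0.87, Tie1 by -1.06 and Tek by -0.39. The difference between 3' and 5' control probe sets of Actb and Gapdh, which grows as RNA is degraded, was 2.46, 1.92 and 2.29 in high fat livers and 2.18, 2.42 and 3.06 in control livers, so the lowest was high fat replicate 2 and the highest control replicate 3.

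Transcripts of 3 endothelial receptors lay lower in offspring of high fat dams, and the VEGF ligand transcripts overlapped between the diets. Kdr was 1.73-fold lower, Tie1 1.98-fold and Tek 1.29-fold, and in these 3 receptor genes every high fat array lay below every control array. In whole liver, fewer endothelial cells and less RNA per endothelial cell cannot be told apart. None of the 9 genes passed an adjusted p under 0.05 in limma, a linear model that borrows the spread across genes; 0.0386% of all genes tested did. At an unadjusted p under 0.05, 3 of 9 members were lower and none was higher, where 7.49% of all genes tested were lower and 6.55% higher. The groups did not overlap, with high fat lower, in 3 members and in 11.6% of all genes; with high fat higher this held for no member and 9.26% of all genes. Counting direction only, 7 of 9 members were lower, with a median of -0.20, against 53.1% of all genes and a median of -0.02. The looser limit of an unadjusted p is used below to describe genes, not to call them changed.

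**Figure D1:**
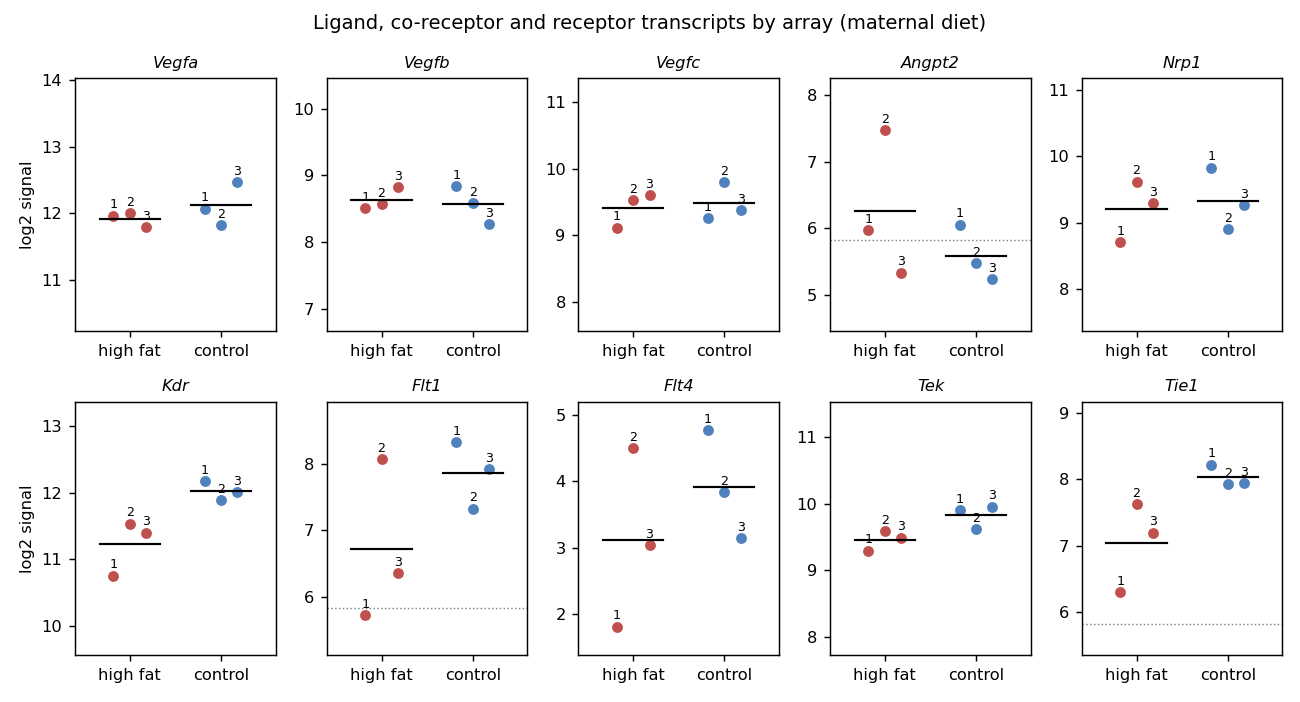
Log2 signal (y axis, each panel spanning the same number of log2 units) of the main probe set of each of the 10 genes on the 3 high fat arrays (red) and the 3 control arrays (blue). Points carry the replicate number, bars are group means, and the dotted line is the brightness limit of 5.83 where it falls inside a panel. Kdr, Tie1 and Tek are the panels in which the diets do not overlap, and all of Flt4 lies below the limit.

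Kdr encodes the main signalling receptor of VEGF-A. Its log2 signal was 10.75, 11.54 and 11.40 in the 3 high fat livers, against 12.17, 11.88 and 12.01 in the 3 control livers. The high fat mean was 11.23 ± 0.42 (SD, n = 3) and the control mean 12.02 ± 0.14 (SD, n = 3). All high fat values were below all control values, with high fat replicate 1 lowest. The difference was -0.79 (SE 0.22, limma adjusted p = 0.240). With 1 array left out at a time it ranged from -0.95 to -0.55, the smallest without high fat replicate 1, and kept an unadjusted p under 0.05 each time. A second Kdr probe set, with a mean of 5.65 below the brightness limit, read 5.48, 5.21 and 5.74 in high fat livers and 6.63, 6.01 and 4.85 in control livers, so there the groups overlapped (difference -0.35, SE 0.48, in a fit of all named probe sets without the brightness limit, which also gives the second probe sets below). Averaging both probe sets gave -0.57 with an unadjusted p of 0.0688 in limma.

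Tie1 is the orphan receptor of the angiopoietin system. It was at 6.30, 7.63 and 7.2 in high fat livers and at 8.22, 7.93 and 7.94 in control livers. The controls were tightly grouped and the high fat livers spread over more than 1 log2 unit below them. The mean was 7.04 ± 0.68 in high fat livers and 8.03 ± 0.16 in control livers (SD, n = 3 each), a difference of -0.99 (SE 0.33, limma adjusted p = 0.282). Leaving out high fat replicate 1 gave -0.62, still at an unadjusted p under 0.05. Leaving out control replicate 1 gave -0.89 with a limma p of 0.0601, and a linear model without moderation also missed the looser limit. Tie1 had a single probe set.

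Tek, the angiopoietin receptor, showed a smaller difference. Its values were 9.29, 9.58 and 9.49 in high fat livers, against 9.90, 9.62 and 9.96 in control livers. High fat replicate 2 and control replicate 2 nearly met. The difference was -0.37 (SE 0.15, limma adjusted p = 0.346). The unadjusted p in limma was 0.0454. It was above 0.05 when high fat replicate 1 or 3 was left out (differences of -0.29 and -0.39), or control replicate 1 or 3 (-0.33 and -0.31), and 0.0512 with the values as deposited.

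Flt1 had the widest spread among the receptors tested. The brightest of its 3 probe sets read 5.72, 8.07 and 6.35 in high fat livers and 8.33, 7.32 and 7.92 in control livers. High fat replicate 2 lay among the controls, while replicates 1 and 3 lay below all of them. The difference was -1.14 (SE 0.59, limma adjusted p = 0.443). It was -1.83 without high fat replicate 2, where the unadjusted p in limma was 0.00191, and -0.64 without high fat replicate 1. With the RNA integrity measure as a covariate it was -1.58 (unadjusted p = 0.0468 in limma). The other Flt1 probe sets averaged 5.19 and 4.86, both below the brightness limit, and differed by -0.31 (SE 0.55) and -0.96 (SE 0.72).

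Flt4, the VEGF-C receptor of lymphatic and sinusoidal endothelium, was dim on every array. It read 1.82, 4.50 and 3.05 in high fat livers and 4.77, 3.84 and 3.15 in control livers. These overlapping values lie under the brightness limit, so Flt4 was not tested with the other genes. In a fit of all named probe sets without that limit its difference was -0.80 (SE 0.78).

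Nrp1, a co-receptor that presents VEGF-A to KDR and also binds semaphorins, had 2 bright probe sets. The brighter read 8.71, 9.62 and 9.29 in high fat livers and 9.83, 8.90 and 9.27 in control livers, which overlap fully (difference -0.12, SE 0.31, limma adjusted p = 0.893). Its sign turned without high fat replicate 1, at 0.13. The other read 7.21, 7.65 and 7.86 in high fat livers and 8.0, 7.75 and 7.85 in control livers (difference -0.29, SE 0.21).

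**Figure D2:**
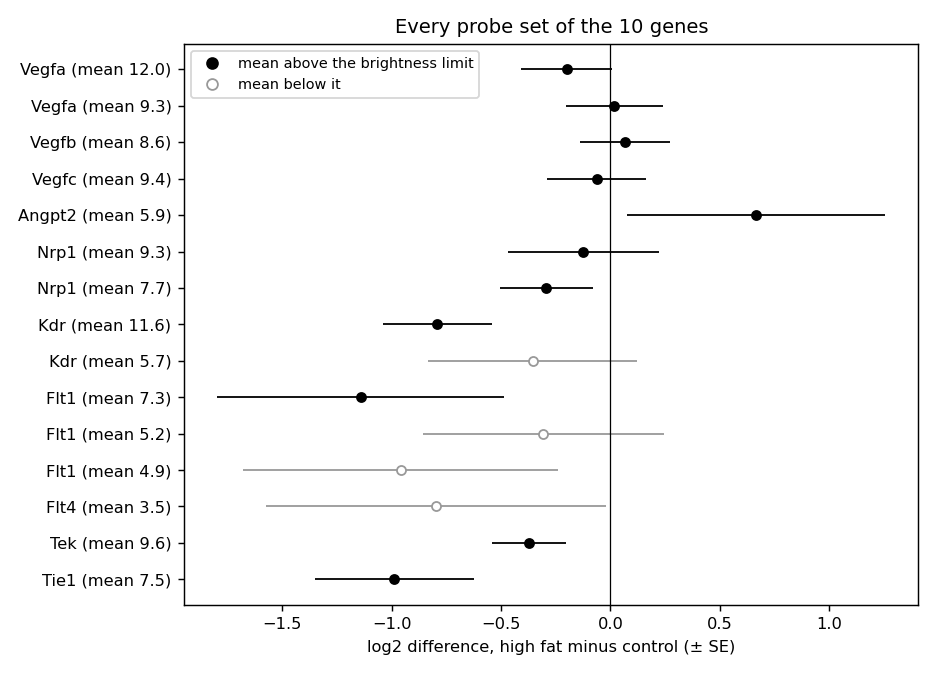
Log2 difference (high fat minus control, x axis) with its standard error for each of the 15 probe sets, from the fit of all named probe sets without a brightness limit. Filled points have a mean above the limit of 5.83 and open points below it. The points for Kdr, Flt1, Tek and Tie1 lie left of 0, at -0.31 to -1.14, those for the VEGF ligands lie at -0.20 to 0.07, and Angpt2 lies right of 0.

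Among the ligands, Vegfa, the factor that drives sinusoidal growth, had a brighter probe set at 11.96, 12.00 and 11.79 in high fat livers and 12.07, 11.82 and 12.46 in control livers. The control livers spread around the high fat livers, and control replicate 3 was highest. The difference was -0.20 (SE 0.19, limma adjusted p = 0.671), and -0.03 without control replicate 3. The second Vegfa probe set read 9.36, 9.21 and 9.36 in high fat livers and 9.34, 8.91 and 9.63 in control livers, with a difference of 0.02 (SE 0.22).

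Vegfb, a ligand of FLT1 and NRP1, was at 8.51, 8.57 and 8.83 in high fat livers and at 8.84, 8.59 and 8.27 in control livers (difference 0.07, SE 0.18, limma adjusted p = 0.905). Vegfc, the ligand of FLT4 and of lymphatic growth, was at 9.11, 9.53 and 9.60 in high fat livers and at 9.25, 9.80 and 9.38 in control livers (difference -0.06, SE 0.21, limma adjusted p = 0.921). The groups overlapped for both ligands. With 1 array left out, Vegfb ranged from -0.08 to 0.20 and Vegfc from -0.17 to 0.10, so neither had a settled sign.

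Angpt2, which activated endothelium stores and releases, was the member with the largest positive difference, and it rested on 1 sample. It read 5.97, 7.47 and 5.33 in high fat livers and 6.06, 5.48 and 5.24 in control livers. High fat replicate 2 stood above all the others, which overlapped, and 3 of the 6 arrays lay under the brightness limit. The difference was 0.67 (SE 0.53, limma adjusted p = 0.623). It was 1.13 without high fat replicate 3, and Angpt2 lay below the brightness limit once replicate 2 of that diet was removed. With the 3' minus 5' difference as a covariate it was 0.17, so the RNA integrity measure moved with it; what part it has in the result was not tested.

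Other genes were high in the same sample, of which Esm1 and Rcan1 were picked after their values had been seen. Esm1, endocan, a secreted marker of endothelial tip cells, read 5.51, 8.90 and 5.46 in high fat livers and 5.73, 5.17 and 5.18 in control livers. Sema3c, a secreted semaphorin that binds neuropilins, read 5.61, 7.29 and 5.73 in high fat livers and 6.12, 5.05 and 5.28 in control livers. Rcan1, a calcineurin inhibitor that VEGF induces in endothelium, read 10.22, 11.93 and 10.86 in high fat livers and 10.81, 10.10 and 10.81 in control livers. None of these separated the diets, and high fat replicate 2 was the highest array for each. Esm1 lay above the brightness limit of 5.83 on that array only, and Sema3c on that array and control replicate 1 only. The other values of Esm1 and Sema3c are too dim to rank, while Rcan1 was above the limit on every array.

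**Figure D3:**
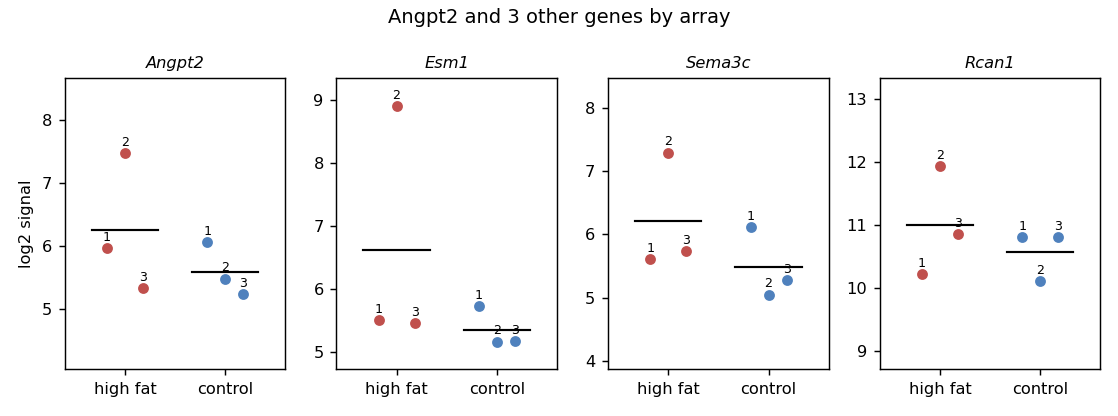
Log2 signal of Angpt2, Esm1, Sema3c and Rcan1 on the 3 high fat arrays (red) and 3 control arrays (blue), with replicate numbers and group means as bars. High fat replicate 2 is the top point of all 4 panels, at 7.47, 8.90, 7.29 and 11.93, and the remaining high fat points lie within or near the control range.

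Relatives outside the 10 genes were measured too. Of 14 further ligands, receptors and partners listed, 13 had a probe set and 7 were bright enough to test; 2 of the 7 were lower at an unadjusted p under 0.05 and none was higher. Ptprb, the vascular phosphatase that dampens TEK, was at 11.40, 11.51 and 11.21 in high fat livers and at 11.65, 12.11 and 11.63 in control livers (difference -0.42, SE 0.18, limma adjusted p = 0.353). Itgb3, an integrin subunit that associates with KDR, was 1.42-fold lower (-0.51, SE 0.17). Ptprb missed the looser limit with any 1 high fat replicate left out (-0.44, -0.49 and -0.34 in turn) or control replicate 2 (-0.27). Itgb3 missed it without high fat replicate 2 (-0.38) or control replicate 1 or 3 (-0.42 and -0.47). Sema3e differed by 0.59 and passed the looser limit with the values as deposited (0.60), and without high fat replicate 1 (0.73) or control replicate 2 (0.79). It was at 0.38 without control replicate 3. Sema3c differed by 0.73, Nrp2 by -0.28, Plxnd1, the semaphorin receptor, by -0.14 and Itgav by -0.06. The ligands Pgf, Vegfd, Angpt1 and Angpt4 lay below the brightness limit; Angpt1 read 4.59, 0.44 and 4.28 in high fat livers and 0, 3.92 and 2.45 in control livers.

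Many, not all, other endothelial transcripts were lower as well. Of 31 markers outside the 10 members, 28 were lower, with a median of -0.41. At an unadjusted p under 0.05, 13 were lower (41.9%) and 1 was higher, where 7.49% of all genes tested were lower and 6.55% higher. The summed log2 level of the endothelial markers ran from 14.86 to 15.15 in high fat livers and from 15.40 to 15.60 in control livers. None of the 33 with a probe set was at 0 on every array. Sums of lymphatic, platelet and hepatocyte markers, given below, were lower without overlap too. Of the 31, Ptprb, S1pr1, Sox18, Erg, Eng, Bmp2, Rspo3 and Wnt2 also stand in other lists here. Lyve1, the hyaluronan receptor, was at -0.57, Ehd3 at -0.80, the Fc receptor Fcgr2b at -0.99 and the scavenger receptor Stab2 at -0.97. Plvap, the diaphragm protein of endothelial fenestrae and a marker of capillaries, went the other way, at 7.96, 8.18 and 8.11 in high fat livers against 7.32, 7.77 and 7.57 in control livers (0.53, SE 0.16, limma adjusted p = 0.255). The pan-endothelial Pecam1 was at -0.09 (SE 0.12). Eng at -0.05, Esam at -0.06, Bmp2 at -0.06 and Mmrn2 at -0.03 differed as little. Plvap, Pecam1, Eng, Esam, Bmp2 and Mmrn2 were picked for mention after their values had been seen.

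Each member was therefore set against the mean of these 31 markers on the same array, which was 8.91, 9.23 and 9.04 in high fat livers and 9.48, 9.39 and 9.41 in control livers. On this measure the diets overlapped for Tek, and its sign turned under several other settings. Its value was 0.38, 0.35 and 0.45 in high fat livers and 0.41, 0.23 and 0.55 in control livers, a difference of -0.0050 (exact permutation p = 1.0). Kdr was lower relative to the markers too, at 1.84, 2.3 and 2.36 in high fat livers and 2.68, 2.50 and 2.60 in control livers, a difference of -0.43. Tie1 was at -2.61, -1.60 and -1.84 in high fat livers and at -1.26, -1.45 and -1.46 in control livers, a difference of -0.62. For Kdr and Tie1 the groups did not overlap, and the exact permutation p was 0.1, the smallest that 3 against 3 arrays allow (2-sided; adjusted p = 0.45 over the 9 members). Without high fat replicate 1, the array with pancreas transcripts, the differences were -0.26 for Kdr and -0.33 for Tie1. With the probe sets of each gene averaged, Kdr relative to the endothelial markers was at -0.25 (exact permutation p = 0.6).

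The other members overlapped between the diets on this measure. Flt1 differed by -0.78, Nrp1 by 0.24, Vegfa by 0.16, Vegfc by 0.30 and Angpt2 by 1.03 (exact permutation p from 0.2 to 0.6). Vegfb stood at -0.40, -0.67 and -0.21 in high fat livers and at -0.64, -0.80 and -1.13 in control livers, a difference of 0.43 (exact permutation p = 0.2).

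**Figure D4:**
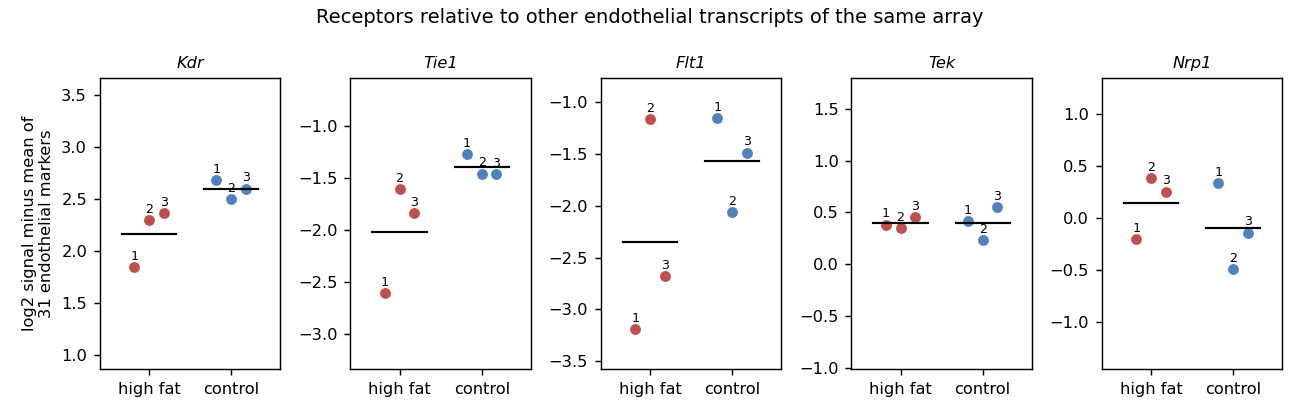
Log2 signal of 5 receptors minus the mean log2 signal of 31 endothelial markers on the same array, for the 3 high fat arrays (red) and the 3 control arrays (blue), with group means as bars and the same span of log2 units in each panel. Kdr and Tie1 lie lower in all high fat livers, Tek lies at 0.23 to 0.55 in every liver, and Flt1 and Nrp1 overlap.

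Across the 6 arrays the receptors varied together. Pearson's r with Kdr was 0.99 for Tie1, 0.93 for Tek and 0.87 for Flt1, against 0.40 for Vegfa and -0.16 for Angpt2. These values describe 6 arrays that fall into 2 diets and share normalization, and no p is given. Outside the members, the genes most like Kdr were Rreb1, Egfl7, Stab2, Nnmt and Palldl1 (r from 0.98 to 0.99 over 6 arrays). Egfl7 is a secreted endothelial protein and Stab2 the sinusoidal scavenger receptor named above. For Tek they were Tnfrsf25, Pacsin3, Zfand4, Ppip5k1 and Lasp1 (0.98 to 0.99), and for Vegfa they were Fbxo46, Jun, Crtc2, Mix23 and Zfp61 (0.98 to 0.99), with control replicate 3 the highest array for all 5.

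Upstream sequence is shown for Kdr, Flt1 and Tie1, receptors that varied together, and motifs were counted in every member with an entry. RefSeq promoter entries (build GRCr8) were found for 8 of the 10 members; Tek and Angpt2 had none there. The 250 bases before the start of Kdr (chr14:32571813-32572062, plus strand), Flt1 (chr12:12333180-12333429, plus strand) and Tie1 (chr5:137304982-137305231, minus strand) are shown 5′ to 3′, with capitals marking the SP1 core, GGGCGG, which reads CCGCCC on the opposite strand.
Kdr: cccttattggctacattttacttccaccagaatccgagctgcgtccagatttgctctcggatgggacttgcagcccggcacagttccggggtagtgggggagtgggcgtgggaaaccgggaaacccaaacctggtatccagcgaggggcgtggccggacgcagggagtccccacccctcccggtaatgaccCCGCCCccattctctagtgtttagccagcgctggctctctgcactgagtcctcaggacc
Flt1: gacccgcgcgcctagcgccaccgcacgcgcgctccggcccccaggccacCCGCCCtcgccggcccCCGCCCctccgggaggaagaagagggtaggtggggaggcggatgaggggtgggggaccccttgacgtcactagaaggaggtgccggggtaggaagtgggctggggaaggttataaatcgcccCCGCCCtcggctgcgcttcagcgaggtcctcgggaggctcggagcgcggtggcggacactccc
Tie1: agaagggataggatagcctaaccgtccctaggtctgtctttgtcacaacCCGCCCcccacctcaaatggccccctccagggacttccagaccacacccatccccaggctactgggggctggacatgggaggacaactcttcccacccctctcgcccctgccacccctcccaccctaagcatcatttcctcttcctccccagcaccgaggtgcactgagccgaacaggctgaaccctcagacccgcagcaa

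The SP1 core stood 1 time in the Kdr window, 3 times in Flt1 and 1 time in Tie1. It was in at least 1 window of 7 of the 8 members with an entry, and 30.5% of all 33469 windows of the same 250 bases hold it. Members are counted as genes and the background as windows. Vegfa had 2 windows, with 3 and 0 SP1 matches. Vegfb held 4 matches, Flt4 3, Vegfc 2 and Nrp1 0. The SP1 core was thus not particular to the receptors that varied together. The ETS core GGAA, which reads TTCC on the opposite strand and is bound by factors active in endothelium, stood in all 8 but also in 93.2% of all windows. The ACGTG form of the hypoxia response element core, reading CACGT on the opposite strand, was in no window of the 8 and in 16.6% of all windows. The GCGTG form was not counted, and it can be read in the Kdr window above. Sequence beyond these 250 bases was not searched either, so a hypoxia element of another form or further away would be missed. Both strands were searched for each motif, and none of the 3 motifs contains another. A match is a run of letters, not a measured binding site.

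Regulators of Vegfa by oxygen are the HIF factors and the prolyl hydroxylases that mark them for breakdown. Of 17 genes tested from a list of these and other regulators of Vegfa, 3 were lower at an unadjusted p under 0.05. None was higher, and the median was -0.16. The list also held genes outside oxygen sensing, among them Stat3, Sp1 and Ets1. Egln3, a hydroxylase that HIF itself induces, was at 5.50, 5.08 and 5.68 in high fat livers and at 8.05, 6.72 and 5.93 in control livers (difference -1.48, SE 0.50, limma adjusted p = 0.288). The controls spread over 2 log2 units, and the high fat livers lay below them. None of those high fat readings reached 5.83, the cut for brightness, so the size of the Egln3 difference is uncertain. Arnt2, a dimer partner of HIF, was at -1.15 (SE 0.28), Stat3 at -0.49 (SE 0.21) and Egln1 at -0.28 (SE 0.12). Among high fat livers only replicate 2 was bright enough for Arnt2, at 6.08. Egln3 and Arnt2 thus count as lower through high fat signals that are wholly or mostly too dim to rank. Egln3 missed the looser limit without high fat replicate 2, at -1.31, and lay below the brightness limit without control replicate 1. Stat3 missed it with any 1 high fat replicate left out (-0.50, -0.40 and -0.58 in turn), or control replicate 1 or 3 (-0.38 and -0.41). Of 16 hypoxia targets other than Vegfa, 8 were higher and 8 lower, with a median of 0.01 and 1 lower at the looser limit, again Egln3. Ddit4 was at -0.42 (SE 0.19), P4ha2 at 0.29 (SE 0.15) and the glucose transporter gene Slc2a1 at -0.51 (SE 0.26). Slc2a1 passed the looser limit without high fat replicate 1, at -0.78, and was at -0.33 without high fat replicate 3. Ddit4 passed it without control replicate 2, at -0.60.

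Downstream of the receptors, 27 genes of VEGF receptor signalling were tested; 3 were lower at the looser limit and none was higher, with a median of -0.07. Src, the kinase that relays KDR to permeability, was at 6.21, 6.49 and 6.84 in high fat livers and at 7.12, 7.24 and 7.22 in control livers (-0.68, SE 0.18, limma adjusted p = 0.220). The calcium-dependent factor Nfatc2 was at -0.67 (SE 0.19), the adaptor Shc1 at -0.47 (SE 0.15) and the phospholipase Plcg1, a direct KDR effector, at -0.33 (SE 0.14). Shc1 missed the looser limit without high fat replicate 1 (-0.42) or control replicate 1 (-0.36). Of 14 endothelial genes that VEGF or FOXO1 induces, 7 were higher and 7 lower, with a median of 0.03. The adhesion molecule Icam1 was the only one past the looser limit, at -0.58 (SE 0.13), followed by Adamts1 at -0.38, Nr4a2 at 0.26 and Nr4a1 at 0.44. Notch and BMP signalling genes had none of 16 past it, with a median of -0.04, and Id1 at -0.39, Hey1 at -0.37, Notch1 at -0.27 and Hes1 at 0.31 had the smallest p. Each moved with single arrays: without control replicate 3 Id1 was at -0.24, Hey1 at -0.21 and Notch1 at -0.04, and Hes1 was at 0.07 without high fat replicate 2. Id1 passed the looser limit without high fat replicate 2 (-0.51) and Hey1 without control replicate 2 (-0.53).

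Transcription factors that shape endothelium included several lower genes. Of 25 tested, 6 were lower at the looser limit, 24.0%, and none was higher, with a median of -0.30. Hhex, a homeobox factor of hepatocytes and early endothelium, was at 11.08, 11.19 and 10.45 in high fat livers and at 12.78, 11.64 and 12.83 in control livers (-1.51, SE 0.36, limma adjusted p = 0.197). The flow-responsive factors Klf4 and Klf2 were at -0.90 (SE 0.21) and -0.65 (SE 0.21), and Ets2 at -0.41 (SE 0.13). Nr2f2, the venous factor, and Prox1, the lymphatic factor that hepatocytes also express, completed the 6, at -0.50 and -0.46, and were named after their values were seen. Klf2 missed the looser limit without high fat replicate 1 (-0.52) or control replicate 1 (-0.54), and with its probe sets averaged (-0.58). Ets2 missed it without high fat replicate 3 (-0.37) or control replicate 2 (-0.35).

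Of 23 angiocrine and matrix factors, 2 were lower and 1 higher at the looser limit, with a median of -0.06. Angptl4, a lipoprotein lipase inhibitor that also acts on vessels, was at 12.41, 12.65 and 12.55 in high fat livers and at 11.50, 11.27 and 9.59 in control livers (1.75, SE 0.48, limma adjusted p = 0.223). Control replicate 3 was far below the other controls, and without it the difference was 1.15. Pdgfrb, the receptor of pericytes and stellate cells, was at -0.48 (SE 0.13), the sphingosine phosphate receptor S1pr1 at -0.49 (SE 0.21) and Adamts1 at -0.38. S1pr1 missed the looser limit whenever an array other than control replicate 2 was left out, at -0.32 to -0.58, and was at -0.04 with its probe sets averaged. Over these 8 lists together 138 genes were tested. At the looser limit 17 were lower, 12.3%, and 1 higher, and none passed the adjusted test. Over all genes tested 7.49% were lower and 6.55% higher. By list, the lower share was 28.6% for the further ligands and receptors, 24.0% for transcription factors and 17.6% for oxygen sensing and Vegfa regulators. It was 11.1% for receptor signalling, 8.70% for angiocrine factors, 7.14% for genes induced by VEGF or FOXO1, 6.25% for hypoxia targets and 0% for Notch and BMP.

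**Figure D5:**
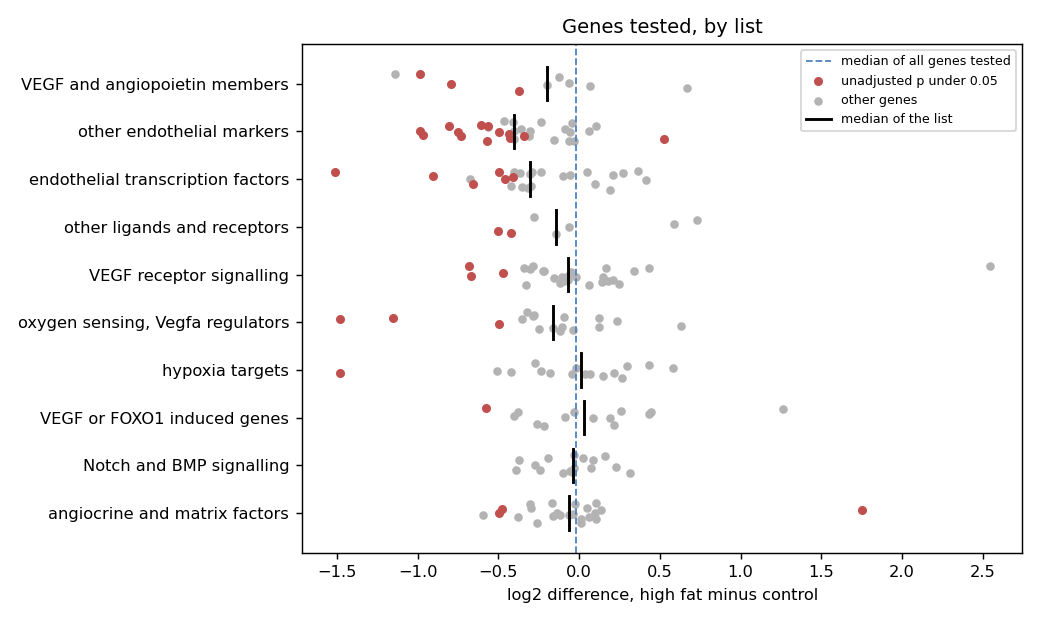
Log2 difference (high fat minus control, x axis) of each gene tested, by list, with genes at an unadjusted p under 0.05 in red, other genes in grey, list medians as black bars and the median of all genes tested as a dashed line. The 31 other endothelial markers (median -0.41) and the 25 endothelial transcription factors (median -0.30) lie furthest left, and the hypoxia targets and the genes induced by VEGF or FOXO1 lie around 0.

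Other cell types were read from their own markers. The 9 hepatocyte markers had none past the looser limit, with a median of -0.03, and their summed log2 level was 17.90 to 17.97 in high fat livers and 17.98 to 18.00 in control livers. Stellate and fibroblast markers had 2 of 12 higher and 3 lower, Kupffer cell markers 1 of 9 lower, erythroid markers 1 of 5 lower, cholangiocyte markers 1 of 2 higher, and lymphocyte, neutrophil and platelet markers none. Of the exocrine pancreas markers 5 of 9 could be tested, and their summed log2 level was 11.32 to 15.64 in high fat livers, the top in replicate 1, and 10.81 to 12.00 in control livers. None of these marker sets held a gene at 0 on every array. Kdr, Flt1, Tie1 and Tek were each lowest in that pancreas-bearing array, and Kdr and Tie1 remained lower than in every control liver in the other high fat arrays. What part the pancreas RNA has in the lower receptor values of replicate 1 was not tested.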

How the data were processed

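Per the labels' protocols, liver RNA of 6 samples was amplified from the 3' end, biotin-labelled and put on Affymetrix arrays. The authors deposited log2 signals for each probe set, as found from the values: only base 2 gives each array the same 2% trimmed mean (500.2) once the logarithm is undone. The software and annotation used by the authors are not given in the sources used here.

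The 57 control probe sets were set aside and the other probe sets were quantile-normalized, since quartiles of the deposited log2 values differed between arrays by up to 0.22. Of the probe sets, 20826 were paired with 1 gene, 436 with several and 9780 were not named here; of the 20826, 20758 matched the RefSeq table (GRCr8) by gene ID. The lowest 40% by mean (below 5.83) were left out, and a gene took its brightest probe set over all 6 arrays, also where arrays were left out. The 2 diets were tested by limma 3.58.1 under R 4.3.3 (linear model with eBayes, 2-sided, Benjamini-Hochberg over 10372 genes), a step tested on simulated data. Single values relative to the endothelial markers used exact permutation over 20 splits. Figures used matplotlib 3.10.9 in Python 3.11.15.

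Members, gene lists, tests and alternatives were chosen with earlier results of these data known. Named genes are all members, the 7 measured relatives, the 4 genes of each other list with the smallest p, and genes stated as picked after their values were seen. Replicate numbers come from the labels, which name no litter; the p-values therefore reflect only how these 6 samples vary. No 2 arrays held the same values (at most 0.0836% identical). The number of arrays limits the precision, and no detection calls were used.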

Additional observations from a re-analysis of the deposited data

How the results depend on the processing

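None of the 9 members passed the adjusted test in limma under any alternative run. Members lower at an unadjusted p under 0.05 numbered 3, and 2 with the values as deposited, no brightness filter, probe sets averaged, each probe set on its own, array weights or the replicate block. They numbered 1 with an unmoderated linear model or a threshold of 0.01, and 0 (with 1 higher, Angpt2) when high fat replicate 2 alone was set against the controls; with 1 array left out they numbered 1 to 4, and 5 to 8 members were lower. Genes past the adjusted test over all genes numbered 4, and 1 without a brightness filter, 8 with an intensity trend, 7 at an adjusted threshold of 0.1, 0 with an unmoderated model, a replicate block or the RNA integrity covariate, and 0 to 3 with 1 array left out. At an unadjusted threshold of 0.01, 430 genes passed, with 6 genes of the 8 other lists and 6 endothelial markers lower. The 8 lists together had 17 lower, 9 with probe sets averaged and 9 with high fat replicate 2 alone (12 to 20 with 1 array left out). They had 1 higher, 2 with values as deposited, the 60% filter, array weights, the replicate block or the covariate, 3 without a filter or unmoderated, 9 with high fat replicate 2 alone, and 1 to 3 with 1 array left out. Endothelial markers lower numbered 13, and 2 with high fat replicate 2 alone. These fits with 1 high fat array assume that it varies like the controls. Same-numbered arrays did not deviate together (correlations of -0.14 to -0.13), so the replicate block pairs nothing known; it gave Tek an unadjusted p of 0.0963 and Sema3e one of 0.0247, and left Kdr at -0.79.

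Of 887 values of 48 genes under alternatives, 870 kept their sign. With high fat replicate 2 alone, Flt1 was at 0.21 (0.39 relative to the endothelial markers), Nrp1 at 0.29, Vegfc at 0.055, Plxnd1 at 0.20 and Vegfb at -0.0043. With the covariate Vegfb was at -0.081 and Itgav at 0.037, and Itgav was at 0.045 with probe sets averaged. With 1 array left out, Itgav ranged from -0.16 to 0.0084, Plxnd1 from -0.32 to 0.029, Nrp1 from -0.34 to 0.13, Vegfb from -0.081 to 0.20, Vegfc from -0.17 to 0.099 and Rcan1 from -0.036 to 0.82. Tek relative to the endothelial markers turned to 0.029 with the 60% filter and 0.0075 against their median, and ranged from -0.089 to 0.071 with 1 array left out. Plcg1, Adamts1 and Egln1 passed the looser limit under some alternatives. The causes were not tested. Angpt2 could not be fitted with the 60% filter or without high fat replicate 2, where it lay below the brightness limit. Flt1 could not be fitted with the 60% filter or with its probe sets averaged, for the same reason. Other dimmer genes, among them Src, Nfatc2, Arnt2, Egln3 and Klf4, also dropped out with the 60% filter. The 887 values hold no entry for a gene in a setting where it dropped out. Dim probe sets, such as those of Flt4, limit what can be read of low genes.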
